A study of Homo sapiens with 6 samples.

Results

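The genes described here are those of human chromosome 17 that the 6 libraries read often enough to follow, taken in 2 stretches along the chromosome. A gene was a member when its start lay on chromosome 17 in the hg38 positions of GENCODE release 29 and its mean estimated read count over the 6 libraries was 10 or more. This gave 945 members of 3010 identifiers on the chromosome and of 60609 identifiers in all. Of these, 248 started below 19.07 Mb and 697 above it, and the gene STAT5B lies in the second stretch. Membership was set by position and by the mean read count, but the boundary itself was placed with the knockout against wild-type differences of these same libraries in view. The values of the 2 stretches are therefore given as a description, with no test between them. Just inside the read threshold were AC015917.2 with a mean of 10 reads and AC134407.2 with 10.17, and just outside it were SNORD3B-1 with 9.838 and TMEM220-AS1 with 9.758. All 248 members below the boundary and 692 of the 697 above it passed the low-count filter of the fit and were tested. The 5 that did not pass were AC015917.2, AC127024.5, RARA-AS1, AC067852.3 and ABCA10, each with a mean of 10 to 11 reads.

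The libraries came from HEK293, a human embryonic kidney line that carries adenovirus DNA, with 3 wild-type samples and 3 samples of STAT5B knockout cells. Per the labels, STAT5B was disrupted by CRISPR/Cas9, and clones mutated on both alleles were selected by sequencing and by protein blot. The labels do not give the number of clones or say whether the 3 samples of a group were separate cultures, so each p-value reflects just the spread among these libraries. Because the knockout cells were picked clones, a difference between clones and the loss of STAT5B cannot be told apart. Both groups grew in the same serum-supplemented medium, and the sample names of both use the word Sham, which the labels do not explain. The protocol also speaks of GS knockout clones without saying what they are, so the genotype rests on the sample labels. The libraries held 17494958 to 21099813 estimated counts, of which the members took 6.71% to 6.76% in wild-type libraries and 6.49% to 6.63% in knockout ones. All 7 HEK293 markers (NEFL, NEFM, PAX2, VIM, CDH2, KRT8 and KRT18) were above 1 CPM, or counts scaled to 1000000, in every library. Their summed level was 1266 to 1303 CPM in the wild type and 1080 to 1103 CPM in the knockout. Within that sum NEFM (420 to 452 CPM in the wild type, 179 to 211 in the knockout) and CDH2 (67.8 to 70.6 and 57.4 to 59.96) were lower in every knockout library, while VIM (584 to 600 and 628 to 655) and NEFL (105 to 107 and 110 to 113) were higher. None of 5 leukocyte markers and none of 3 endothelial markers reached that level in every library, with PTPRC, CD3E and CDH5 at 0 counts, and 1 of 4 fibroblast markers (COL1A1) did. Summed levels in the wild type and the knockout were 0.47 to 0.85 and 0.51 to 0.96 CPM for the leukocyte markers, 7.24 to 10.0 and 8.16 to 10.1 CPM for the fibroblast markers, and 0.052 to 0.17 and 0 to 0.057 CPM for the endothelial markers. The part of these marker levels in the results was not tested, and in bulk RNA fewer cells of a type and less RNA per cell cannot be told apart.

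Chromosome 17 is one of the most gene-dense human chromosomes. Genes for translation, ubiquitin and the actin cytoskeleton lie on both of its arms. Its long arm carries the HOXB cluster, the STAT genes STAT3, STAT5A and STAT5B, and many genes of mitosis and chromatin. The boundary lies on the short arm, in a stretch near the centromere known for low-copy repeats that rearrange in inherited disorders such as Smith-Magenis syndrome. HEK293 has an abnormal karyotype that varies between sublines, and mRNA counts do not show how many DNA copies a gene has. The DNA content of these cells was not analysed here.

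The landmark members next to the boundary are FAM83G, the last before it, and EPN2, the first after it to be called. Both were called higher, so the side did not change between them. The other landmarks are USP22, the first past the boundary to be called lower, and STAT5B, the targeted gene. The promoters of these 4 members are shown so that their letters can be read side by side. The 250 bases before the RefSeq start (GRCh38.p14, chromosome 17) are printed 5′ to 3′ on the strand of the gene: chr17:19004765-19005014 on the minus strand for FAM83G, chr17:19237116-19237365 on the plus strand for EPN2, chr17:21043012-21043261 on the minus strand for USP22 and chr17:42276392-42276641 on the minus strand for STAT5B. RefSeq starts differ from the GENCODE gene bounds given below: the windows of EPN2, USP22 and STAT5B lie wholly inside those bounds, well inside for EPN2, and that of FAM83G partly inside. Capitals mark matches to the GC box, GGGCGG, or its reverse complement, CCGCCC. A match to TTCNNNGAA, the STAT5 recognition pattern, which reads the same on both strands, would also be in capitals, and none of the 4 holds one.
FAM83G: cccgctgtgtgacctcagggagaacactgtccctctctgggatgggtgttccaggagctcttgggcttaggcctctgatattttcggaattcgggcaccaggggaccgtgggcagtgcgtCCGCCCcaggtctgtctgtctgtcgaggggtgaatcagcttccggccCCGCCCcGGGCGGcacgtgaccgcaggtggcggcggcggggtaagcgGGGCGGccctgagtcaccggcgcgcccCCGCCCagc
EPN2: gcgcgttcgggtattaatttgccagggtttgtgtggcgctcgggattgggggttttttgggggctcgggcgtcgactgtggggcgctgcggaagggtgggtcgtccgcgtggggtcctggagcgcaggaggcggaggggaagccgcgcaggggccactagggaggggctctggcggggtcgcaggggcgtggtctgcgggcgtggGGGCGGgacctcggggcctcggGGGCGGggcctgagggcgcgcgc
USP22: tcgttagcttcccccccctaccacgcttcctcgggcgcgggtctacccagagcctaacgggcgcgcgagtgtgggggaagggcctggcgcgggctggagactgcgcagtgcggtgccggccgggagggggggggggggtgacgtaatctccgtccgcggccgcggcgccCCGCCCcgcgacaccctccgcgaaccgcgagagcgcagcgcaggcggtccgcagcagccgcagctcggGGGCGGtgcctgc
STAT5B: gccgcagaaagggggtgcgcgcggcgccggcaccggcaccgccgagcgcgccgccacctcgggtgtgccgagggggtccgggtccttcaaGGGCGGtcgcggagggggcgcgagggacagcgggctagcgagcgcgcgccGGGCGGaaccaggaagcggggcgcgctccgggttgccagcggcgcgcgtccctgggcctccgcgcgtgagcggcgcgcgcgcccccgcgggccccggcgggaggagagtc
FAM83G holds 5 GC boxes and the other 3 promoters hold 2 each. RefSeq had a promoter for 173 members below the boundary and 443 above it. TTCNNNGAA was found in 16 of the 173 (9.25%) and in 15 of the 443 (3.39%), against 1850 of all 27305 promoters (6.78%). A GC box was found in 69.4% below, 69.3% above and 42.3% of all promoters. The set of all promoters includes genes under the read threshold, so its shares and those of the members are not like for like. These are matches of letters and show no binding.

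STAT5B (chr17:42199168-42276707, ENSG00000173757.9) encodes a transcription factor activated by JAK kinases downstream of growth hormone and cytokine receptors. Its mRNA was still read in the knockout. It stood at 70.1, 64.6 and 69.4 CPM in wild-type libraries and at 63.1, 61.8 and 60.5 CPM in knockout ones, a log2 fold change of -0.14 ± 0.05 (SE; edgeR quasi-likelihood test, adjusted p = 0.047). The groups did not overlap, and the fall was near the median of the members above the boundary. The call was lost with DESeq2 (adjusted p = 0.076), with no low-count filter (0.062), with a replicate block (0.055), with offsets from effective length (0.10, log2 fold change -0.24), in limma on log2(TPM + 1) (0.084, -0.30), without wild-type replicate 1 (0.16) or 3 (0.15) and without knockout replicate 1 (0.061), 2 (0.096) or 3 (0.094). The nearest tested members before STAT5B were KCNH4, a potassium channel gene, and GHDC. KCNH4 had a log2 fold change of -0.18 ± 0.34 (edgeR adjusted p = 0.75). GHDC stood at -0.29 ± 0.10 (edgeR adjusted p = 0.057). It was called without knockout replicate 3 (edgeR adjusted p = 0.015), with no low-count filter (0.019) and with a replicate block (0.04985). STAT3, a factor that acts downstream of interleukin-6 receptors, was the next coding member past STAT5B. It had a log2 fold change of -0.12 ± 0.05 (edgeR adjusted p = 0.11, and 0.0098 without knockout replicate 3). AC099811.6, an unclassified transcript placed on the opposite strand inside STAT5B (chr17:42233832-42235469), had 0 counts in every wild-type library and 28, 27 and 34 in knockout libraries, at least 30.3-fold higher against a floor of 3 counts over the group. The sources used here do not say whether the library kit keeps strand, so its reads and those of STAT5B cannot be told apart by strand.

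Members below the boundary lay higher in the knockout and members above it lay lower, each by under 10 percent at the median. Below, the median log2 fold change was 0.11 (1.08-fold; quartiles -0.0012 and 0.24), and 185 of 248 members (74.6%) lay above 0. Above, it was -0.12 (0.919-fold; quartiles -0.24 and 0.0058), and 511 of 692 (73.8%) lay below 0. Over all 15958 tested genes the median was 0.0063, with 51.3% above 0. Below the boundary, edgeR called 69 members higher (27.8%) and 5 lower (2.02%), and 174 were not called. Above it, 19 were called higher (2.75%) and 184 lower (26.6%), and 489 were not called. Over all tested genes 23.4% were called, 12.1% higher and 11.4% lower. Since the boundary was chosen on this contrast, nothing is read from how these shares differ. In limma on log2(TPM + 1), where TPM is a count per gene length scaled to a fixed total, the calls below were 21 higher and 7 lower and those above 6 higher and 121 lower. With offsets from effective length the counts were 33 higher and 4 lower below, and 9 higher and 88 lower above.

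The direction was shared by all libraries of a group, in stretches whose boundary was set with these same libraries in view. A library's level for a stretch is the median, over its tested members, of the deviation of log2 CPM from the mean of the 6 libraries. Below the boundary the wild-type libraries stood at -0.046, -0.052 and -0.052 and the knockout libraries at 0.042, 0.056 and 0.058 on this log2 scale. Above it the wild type stood at 0.066, 0.053 and 0.062 and the knockout at -0.066, -0.058 and -0.041. The groups did not overlap in either stretch, and within a group the libraries lay close together, at -0.050 ± 0.004 and 0.052 ± 0.009 (SD, n = 3) below the boundary. Counted as a share of each library, members below took 2.23% to 2.25% in wild-type and 2.43% to 2.49% in knockout libraries. Members above took 4.48% to 4.51% and 4.05% to 4.14%. Single members were apart less regularly: below the boundary 98 (39.5%) had all 3 knockout libraries above all 3 wild-type libraries and 15 (6.05%) the reverse. Above it 262 (37.9%) had all knockout libraries below and 44 (6.36%) above. Over all tested genes these shares were 19.9% above and 18.7% below.

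**Figure D1:**
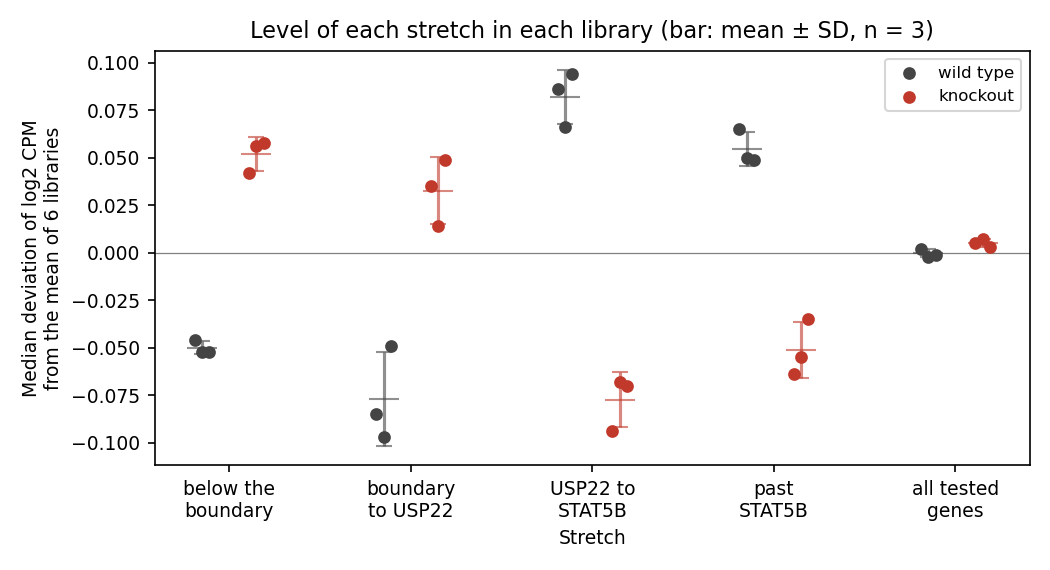
Median deviation of log2 CPM from the mean of the 6 libraries, for 4 stretches of chromosome 17 and for all tested genes; each point is a library, and bars are the mean ± SD of 3. The knockout lies above the wild type below the boundary and up to USP22, and below it in the stretches from USP22 on.

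Along the chromosome the levels held their side over long distances. In 5 Mb bins the median log2 fold change was 0.099 from 0 to 5 Mb (79 tested members) and 0.13 from 5 to 10 Mb (96). The median was 0.0795 from 10 to 15 Mb (13) and 0.11 from 15 to 20 Mb (72), a bin that holds the boundary. It was -0.085 from 20 to 25 Mb (16), -0.18 from 25 to 30 Mb (46) and -0.17 from 80 to 85 Mb (76). Past the boundary the bins nearest to 0 were 55 to 60 Mb (-0.054, 46 members) and 70 to 75 Mb (-0.045, 21 members). Of 34 bins of 2 Mb with at least 10 tested members, 7 of 7 that end at or below 18 Mb had a median above 0, and 24 of 25 that start at or above 22 Mb had one below 0. The exception was 56 to 58 Mb, with a median of 0.014 over 14 members, and the bin from 8 to 10 Mb stood at 0.0033 over 23. In runs of 25 consecutive tested members, all 224 runs wholly below the boundary had a median above 0 (0.0033 to 0.22). Past the start of USP22, 645 of 649 runs had one below 0 (-0.27 to 0.019). Overlapping runs share members, so these are not independent counts.

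**Figure D2:**
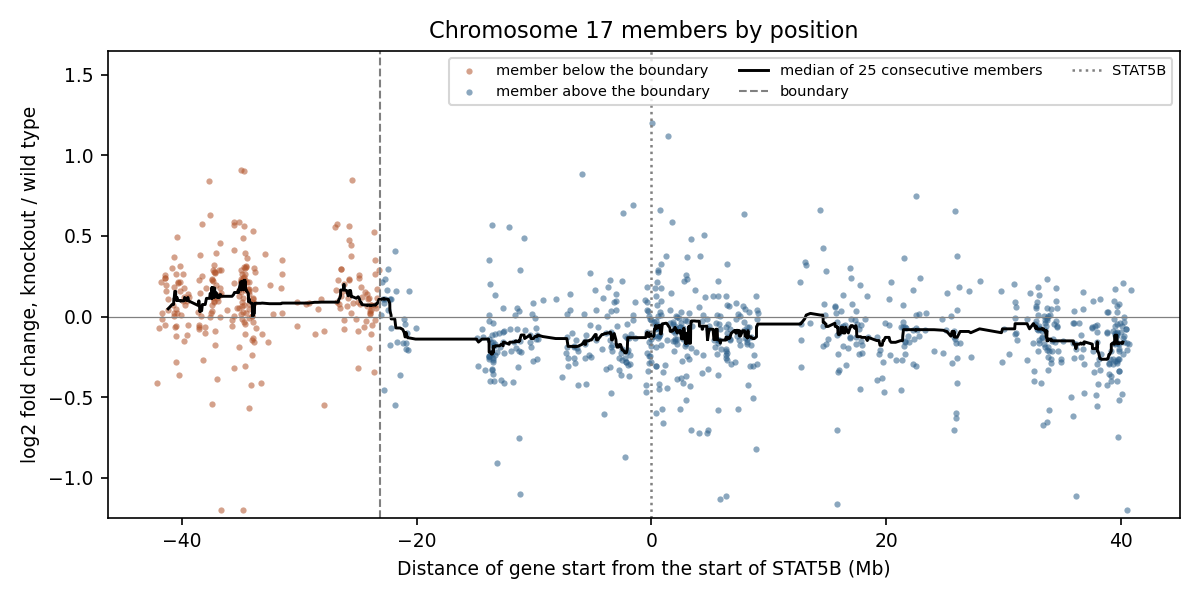
log2 fold change of each tested member against the distance of its start from that of STAT5B, with the median of 25 consecutive members as a line; 4 members beyond 1.2 are drawn at that edge. The line lies above 0 up to the boundary and changes side past it, before the long gap without members.

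Members just past 19.07 Mb still lay mostly above 0. FAM83G (chr17:18968789-19004804), whose product binds casein kinase and acts in BMP and WNT signalling, went from 30.6, 28.5 and 27.9 CPM in wild-type libraries to 34.3, 33.5 and 38.5 CPM in knockout ones (log2 fold change 0.29 ± 0.07, edgeR adjusted p = 0.0066). EPN2 (chr17:19215615-19336715), an epsin of clathrin-mediated endocytosis on the other side of the boundary, also rose, from 62.7, 61.1 and 60.3 to 72.1, 70.4 and 71.5 CPM (0.22 ± 0.04, edgeR adjusted p = 0.0020). Of the remaining members nearest to the boundary, PRPSAP2 (0.17 ± 0.04, edgeR adjusted p = 0.0075) rose. TVP23B at 0.11 and B9D1 at 0.11 were not called, nor was SNORD3A, a small nucleolar RNA with under 2 CPM in every library. The 10 tested members nearest below had a median of 0.14 with 8 above 0, and the 10 nearest above had a median of 0.11 with 9 above 0.

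Between the boundary and USP22 lay 19 members, with a median of 0.11 and 13 above 0. In it 4 were called higher: EPN2, ALDH3A2 (a fatty aldehyde dehydrogenase), ULK2 (an autophagy kinase) and RPS2P46, a processed pseudogene that may share reads with RPS2. That 0 were called lower is fixed by definition, since USP22 was taken as the first member past the boundary to be called lower. ULK2 went from a mean of 21.7 to 26.7 CPM (log2 fold change 0.29 ± 0.07, edgeR adjusted p = 0.0087, and 0.051 without knockout replicate 1). RPS2P46 lost its call without wild-type replicate 2 (edgeR adjusted p = 0.080) or knockout replicate 1 (0.073) or 3 (0.054), and with DESeq2 (0.067). ALDH3A2 went from 131.9, 136.2 and 144.9 to 149.8, 164 and 149.3 CPM (0.17 ± 0.05, edgeR adjusted p = 0.016), a call lost without wild-type replicate 1 (0.091) or 2 (0.069) or knockout replicate 2 (0.088). All 9 members of this stretch at a mean of 16 CPM or more, from EPN2 to SPECC1 at 20.01 Mb, lay above 0, with a median of 0.11. SPECC1 itself was not called (edgeR adjusted p = 0.099, and 0.027 without knockout replicate 2). The 10 others, all under 16 CPM, had a median of -0.11, with 6 below 0 and 0 called, and the mean over all 19 was 0.014. They included USP32P3 and CCDC144CP, copies within the low-copy repeats whose reads may be shared. USP22 (chr17:20999593-21043760), the deubiquitinase of the SAGA complex, fell from 502.3, 493 and 486.2 to 439.1, 426.9 and 457.1 CPM (-0.16 ± 0.03, edgeR adjusted p = 0.0029). The 20 tested members from USP22 on, USP22 itself included, had a median of -0.13, with 17 below 0 and 7 called lower (35%). The call of USP22 is built in, since this run starts at a gene taken because it was called lower. The last member before the centromere starts at 22.09 Mb (UBBP4) and the next at 27.29 Mb (WSB1). SPECC1, the last member at a mean of 16 CPM or more before USP22, and USP22 therefore both lie on the short arm. From USP22 to the end of the chromosome the median was -0.12 over 673 tested members, with 15 called higher (2.23%) and 184 lower (27.3%). Over all tested genes 12.1% were called higher and 11.4% lower. By library, the 19 members between the boundary and USP22 stood at -0.085, -0.097 and -0.049 for wild type and at 0.035, 0.014 and 0.049 for knockout. ULK2, SPECC1, the level of 16 CPM and the choice of USP22 as a landmark came after their values were seen.

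**Figure D3:**
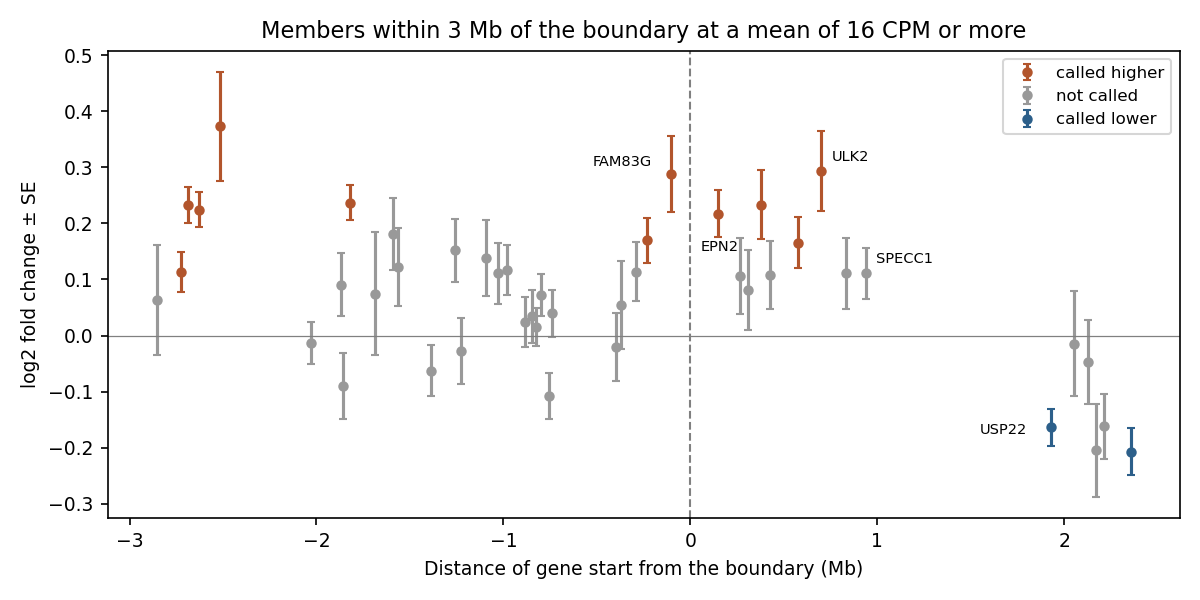
log2 fold change ± SE of the 44 members within 3 Mb of the boundary at a mean of 16 CPM or more, against distance from the boundary. All 9 members in the first Mb past the boundary lie above 0, and USP22 is the first called lower.

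Members lay lower on both sides of STAT5B. The 190 tested members from USP22 up to STAT5B had a median of -0.16, with 70 called lower (36.8%) and 4 higher (2.11%). The 482 past STAT5B had a median of -0.10, with 113 lower (23.4%) and 11 higher (2.28%). Over all tested genes 11.4% were called lower and 12.1% higher. The first group starts at USP22, taken as a landmark because it was called lower, so that call is built in. By library, the first group stood at 0.086, 0.066 and 0.094 for wild type and -0.094, -0.068 and -0.070 for knockout. The second stood at 0.065, 0.050 and 0.049, and at -0.064, -0.055 and -0.035. In both the groups did not overlap.

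Most called members moved little. The 69 called higher below the boundary had a median rise of 1.201-fold, with 34 under 1.2-fold, 6 over 1.5-fold and 0 over 2-fold. The 184 called lower above it had a median fall of 1.19-fold, with 99 under 1.2-fold, 10 over 1.5-fold and 4 over 2-fold. Those 4 were FN3K, DNAH17, NFE2L1-DT and AC015813.2, all with under 7 CPM in every library. By edgeR adjusted p, FN3K lost its call without knockout replicate 1 (0.056), DNAH17 with a replicate block (0.057), without any wild-type replicate (0.072, 0.088 and 0.20) or without knockout replicate 2 (0.19) or 3 (0.14), and NFE2L1-DT without wild-type replicate 1 (0.16) or 3 (0.070) or knockout replicate 2 (0.11) or 3 (0.12). AC015813.2 lost its call with DESeq2 (adjusted p = 0.062).

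Below the boundary the 5 largest rises among members at 5 CPM or more were FGF11, SMTNL2, BCL6B, C17orf100 and CAMKK1. FGF11, an intracellular fibroblast growth factor homologue, went from 5.53, 6.61 and 8.32 to 14.03, 11.14 and 13.49 CPM (log2 fold change 0.91 ± 0.14, edgeR adjusted p = 3.61e-04). CAMKK1, a calcium/calmodulin-dependent kinase kinase, went from 27.2, 28.0 and 28.4 to 39.2, 42.2 and 43.1 CPM (0.58 ± 0.06, edgeR adjusted p = 1.44e-05). In both genes every knockout library lay above every wild-type library. BCL6B, a zinc finger repressor, stood at 0.59 ± 0.13, C17orf100 at 0.59 ± 0.14 and SMTNL2, a smoothelin-like gene, at 0.63 ± 0.17. The SMTNL2 call was lost without wild-type replicate 3 (edgeR adjusted p = 0.067), knockout replicate 1 (0.054) or knockout replicate 3 (0.055). The 3 members below the boundary with the highest CPM, a scale that does not correct for gene length, were YWHAE, EIF4A1 and PRPF8. YWHAE, a 14-3-3 adaptor, went from 1528, 1503 and 1535 to 1863, 1917 and 1845 CPM (0.30 ± 0.03, edgeR adjusted p = 1.44e-05). PRPF8, the core protein of the spliceosome, stood at 1445, 1446 and 1408 and at 1440, 1458 and 1546 CPM with overlapping groups (0.05 ± 0.03, edgeR adjusted p = 0.34).

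Above the boundary the 5 largest falls by the same rule were NME1-NME2, NBR1, RFNG, TNRC6C and GAA. NBR1, an autophagy receptor, went from 117.6, 124.4 and 122.9 to 77.4, 77.5 and 76.2 CPM (log2 fold change -0.66 ± 0.04, edgeR adjusted p = 1.07e-07), with a gap between the groups far wider than the spread within them. TNRC6C, a GW182 protein of microRNA silencing, went from 65.3, 59.3 and 55.4 to 40.8, 43.6 and 42.8 CPM (-0.50 ± 0.06, edgeR adjusted p = 6.81e-05). GAA, the lysosomal acid glucosidase, fell from 82.3, 86.8 and 86.8 to 60.6, 59.2 and 62.6 CPM (-0.49 ± 0.04, edgeR adjusted p = 5.44e-06). RFNG, a fringe glycosyltransferase acting on Notch, stood at -0.52 ± 0.10. NME1-NME2 is a readthrough of the neighbouring nucleoside diphosphate kinase genes NME1 and NME2, so its value (-0.82 ± 0.15) is uncertain. NME1 itself stood at 0.13 ± 0.04. Of the 3 members with the highest CPM, ACTG1 (cytoplasmic gamma actin) fell from 2847, 2710 and 2727 to 2164, 2274 and 2455 CPM (-0.27 ± 0.04, edgeR adjusted p = 4.20e-04). KPNB1, the nuclear import receptor importin beta, fell (-0.19 ± 0.03, edgeR adjusted p = 6.59e-04). ACLY, ATP citrate lyase, overlapped between groups (0.03 ± 0.03, edgeR adjusted p = 0.51).

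**Figure D4:**
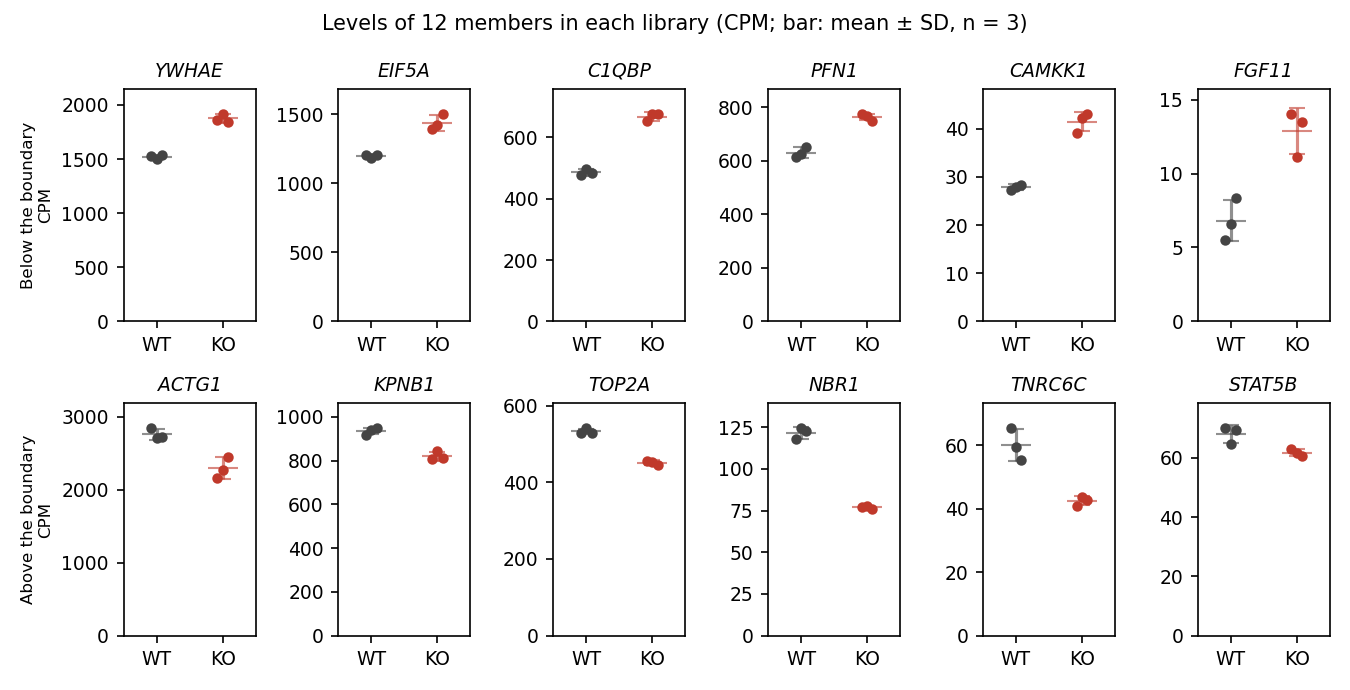
CPM of 12 members in each of the 6 libraries, with the mean ± SD of 3 as bars and each axis starting at 0; the upper row lies below the boundary and the lower row above it. In all 12 the groups do not overlap, and the differences are small beside the level for most, STAT5B included.

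Genes of one function lay on both sides of the boundary. The lists were chosen with earlier results of these data known. Each is read beside the median of 0.0063 and the 12.1% higher and 11.4% lower calls over all tested genes. Listed genes are also part of their stretch, where 27.8% were called higher below and 26.6% lower above. In the highest quartile of mean CPM these shares were 47.9% and 53.9%. No result about function is read from the list counts. Of the translation genes below the boundary, 3 of 4 were called higher: EIF5A, the hypusinated elongation factor, EIF4A1, the cap-dependent helicase, and RPL26. EIF5A went from 1204, 1184 and 1208 to 1393, 1419 and 1502 CPM (log2 fold change 0.26 ± 0.03, edgeR adjusted p = 9.38e-05) and EIF4A1 from 1385, 1414 and 1413 to 1571, 1677 and 1674 CPM (0.22 ± 0.03). Above it the 16 listed had a median of -0.0029, with RPL27 called higher and RPL23A and RPL23 lower. RPL27 rose from 432.7, 453.1 and 434.7 to 551.3, 568.3 and 533.7 CPM (0.32 ± 0.03, edgeR adjusted p = 2.02e-05), and RPL23A fell (-0.18 ± 0.04). RPL23 stood at -0.17 ± 0.05 and lost its call without wild-type replicate 2 (edgeR adjusted p = 0.061) or 3 (0.052). Ribosomal protein genes have many processed pseudogenes, and the sources used here do not say how the authors' counting split such reads.

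Ubiquitin and proteasome genes showed 4 of 5 higher below (median 0.22) and 10 of 22 lower above (median -0.12), with 0 called against the side of their stretch. COPS3, a subunit of the COP9 signalosome, went from 266.4, 270.3 and 264.5 to 307.4, 315.4 and 321.3 CPM (log2 fold change 0.24 ± 0.03, edgeR adjusted p = 1.04e-04). UBB, a polyubiquitin gene, rose as well (0.23 ± 0.03), with UBE2G1 (0.18 ± 0.03), a ubiquitin-conjugating enzyme, and the proteasome subunit PSMB6 (0.22 ± 0.05). Above the boundary the ubiquitin ligase RNF213 fell (-0.42 ± 0.06, edgeR adjusted p = 1.10e-04), as did the deubiquitinases USP36 (-0.25 ± 0.04) and USP22. RNF213 stood at -0.18 with offsets from effective length (adjusted p = 0.16) and at -0.23 in limma on log2(TPM + 1) (adjusted p = 0.16), called in neither. The proteasome ATPase PSMC5 was also called lower, at -0.16 ± 0.04.

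Transcription and chromatin genes had 2 of 8 called higher below, PHF23 and the Mediator subunit MED31, with a median of 0.18. Above, 14 of 27 were called lower and 0 higher, with a median of -0.17. CDK12, the kinase of the elongating polymerase, went from 217.9, 213.1 and 220.0 to 171.9, 171.3 and 172.9 CPM (log2 fold change -0.34 ± 0.03, edgeR adjusted p = 7.26e-06). BPTF, a subunit of the NURF remodeller, fell (-0.29 ± 0.04, edgeR adjusted p = 7.56e-05), as did SUPT6H, a histone chaperone of elongation (-0.28 ± 0.04). The Mediator subunits MED1 (-0.26), MED13 (-0.28) and MED24 (-0.28) were among the other genes called lower. Below the boundary POLR2A, the largest subunit of RNA polymerase II, stood at -0.03 ± 0.04 and NCOR1, a corepressor, at -0.08 ± 0.03, neither called. In limma on log2(TPM + 1) NCOR1 was called lower (-0.18, adjusted p = 0.043). Of splicing and RNA-binding genes, 0 of 4 were called below (median 0.022) and 8 of 17 were called lower above (median -0.14). IGF2BP1, an mRNA-binding protein, went from 584.7, 594 and 569.1 to 462.2, 482.1 and 479.2 CPM (-0.30 ± 0.03, edgeR adjusted p = 2.63e-05). CASC3 of the exon junction complex (-0.22 ± 0.04) and NUFIP2 (-0.19 ± 0.03) also fell. The NUFIP2 value was -0.07 with offsets from effective length, and no longer called.

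Replication, repair and mitosis genes above the boundary all lay below 0, 23 of 23, and 11 were called lower (median -0.17). TOP2A, which untangles replicated DNA, went from 527.5, 541.3 and 529.2 to 456.2, 452.6 and 444.8 CPM (log2 fold change -0.24 ± 0.03, edgeR adjusted p = 7.83e-05). The kinesin gene KIF18B (-0.41 ± 0.05) and the spindle gene SPAG5 (-0.23 ± 0.04) fell too. Below the boundary 5 of 5 lay above 0 and 3 were called higher. RPA1, of the single-stranded DNA-binding complex, rose from 255.5, 250.5 and 247.9 to 284.5, 285.6 and 300.4 CPM (0.21 ± 0.03, edgeR adjusted p = 4.42e-04). CENPV stood at 0.11 ± 0.04 and AURKB, the mitotic kinase Aurora B, at 0.11 ± 0.04. AURKB lost its call without wild-type replicate 1 (edgeR adjusted p = 0.21) or 3 (0.11) or any knockout replicate (0.097, 0.12 and 0.074). CENPV lost it without wild-type replicate 2 (0.15) or 3 (0.086) and without knockout replicate 1 (0.054) or 2 (0.12). AURKB also lost its call with DESeq2 (0.11), RLE scaling (0.058), limma-voom (0.052), no low-count filter (0.069) and a replicate block (0.066), and CENPV with DESeq2 (0.055) and the block (0.055).

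Kinase, adaptor and tumour suppressor genes had 4 of 10 called higher and 1 lower below (median 0.10), and 16 of 25 lower with 0 higher above (median -0.17). TAOK1, a kinase upstream of p38, went from 191.4, 192.3 and 185.4 to 144.7, 145 and 144.1 CPM (log2 fold change -0.39 ± 0.03, edgeR adjusted p = 2.84e-06). SOCS7, of the family of cytokine signalling suppressors, fell as well (-0.33 ± 0.05, edgeR adjusted p = 4.82e-04). DVL2, of WNT signalling, stood at 0.15 ± 0.04 and ARRB2, an arrestin, at 0.23 ± 0.06. The ARRB2 call was lost without wild-type replicate 2 (edgeR adjusted p = 0.065) or knockout replicate 1 (0.055), and the DVL2 call without wild-type replicate 1 (0.098) or 3 (0.068) or knockout replicate 1 (0.058) or 3 (0.059). NLRP1, an inflammasome sensor (chr17:5499427-5619424), was the 1 listed member called lower there. It held 245, 217 and 243 counts in wild-type libraries against 2, 0 and 1 in knockout ones, a ratio of 230 with a 95% exact interval of 78.4 to 1119 that covers counting error only.

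Cytoskeleton, adhesion and traffic genes had 4 of 9 called higher below (median 0.092) and 12 of 24 called lower above (median -0.16), with 0 called the other way in either stretch. PFN1, the actin monomer-binding profilin, went from 615.4, 625.4 and 653.2 to 775.9, 766.7 and 750.9 CPM (log2 fold change 0.28 ± 0.03, edgeR adjusted p = 5.35e-05). ITGAE, an integrin chain, rose (0.38 ± 0.08), and NDEL1, a dynein regulator, stood at 0.17 ± 0.05, a call lost without wild-type replicate 1 (edgeR adjusted p = 0.075) or knockout replicate 1 (0.062) and with DESeq2 (0.055). Above, JUP, plakoglobin of cell junctions, fell (-0.47 ± 0.07, edgeR adjusted p = 1.80e-04). The clathrin heavy chain CLTC went from 856.5, 829.6 and 832.4 to 726.1, 741.4 and 769.8 CPM (-0.17 ± 0.03).

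Mitochondrial genes had 2 of 8 called higher below (median 0.11) and 1 higher and 1 lower of 15 above (median -0.047). C1QBP, a mitochondrial matrix protein, went from 476.2, 498 and 484.5 to 652.2, 675.4 and 676.7 CPM (log2 fold change 0.46 ± 0.03, edgeR adjusted p = 6.87e-07). ACADVL, of fatty acid oxidation, rose by 0.22. The complex I assembly gene NDUFAF8 stood at -0.36 ± 0.09, a call lost without wild-type replicate 2 (edgeR adjusted p = 0.052) or knockout replicate 1 (0.060). NME1 lost its call without wild-type replicate 1 (0.15) or 3 (0.13) or knockout replicate 2 (0.13) or 3 (0.083). Metabolic enzyme genes had 0 of 7 called below (median 0.064) and 8 lower and 2 higher of 19 above (median -0.19). FASN, fatty acid synthase, went from 884.7, 795.6 and 790.3 to 622.9, 630.8 and 697.5 CPM (-0.34 ± 0.05, edgeR adjusted p = 2.26e-04). COASY, of coenzyme A synthesis, fell by 0.31 on the log2 scale, and ACACA, which makes malonyl-CoA for FASN, by 0.25.

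Which single members were called differed between the fits. Of 99 named members, 88 were called, and of these 32 lost their call with offsets from effective length, at adjusted p of 0.051 to 0.75. These were AC015813.2, ACADVL, ARRB2, AURKB, BCL6B, C17orf100, CENPV, DNAH17, DVL2, FAM83G, FKBP10, HOXB3, HOXB5, HOXB7, LIMD2, MMD, NDEL1, NDUFAF8, NFE2L1-DT, NME1, NUFIP2, PHF23, PRPSAP2, PSMB6, RFNG, RNF213, RPL23A, RPS2P46, SOCS7, STAT5B, ULK2 and ZZEF1. In limma on log2(TPM + 1), which changes the scaling, the offset and the model as well as the use of length, 37 lost it, 36 without a change of sign and DVL2 with one (adjusted p = 0.91). Besides 28 of the members just listed the 36 were ALDH3A2, COPS3, EIF4A1, EIF5A, EPN2, RPA1, UBB and UBE2G1. The offsets moved 12 of the 88 values by over 1.5 times, 4 of them still called. Among these, besides values given elsewhere, ACADVL stood at 0.14, BCL6B at 0.38, DVL2 at 0.055 and DNAH17 at -0.63, not called, and EPN2 at 0.34, SMTNL2 at 1.251, CAMTA2 at -0.29 and ACACA at -0.38, called. In limma on log2(TPM + 1) 33 moved by as much, 10 of them still called.

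Of the 10 HOXB genes, which set positional identity in the embryo, 9 were members, with 4 called lower (HOXB9, HOXB3, HOXB6 and HOXB5) and HOXB7 higher. HOXB9 went from 297.1, 287.2 and 301.0 to 245.2, 240.1 and 248.7 CPM (log2 fold change -0.27 ± 0.03, edgeR adjusted p = 4.95e-05), while HOXB7 stood at 14.7, 15.1 and 14.7 and at 16.6, 21.9 and 16.8 CPM. The HOXB7 call was lost without knockout replicate 2 (edgeR adjusted p = 0.17) or without wild-type replicate 1 (0.091), 2 (0.079) or 3 (0.084) and with DESeq2 (0.0504), and the HOXB5 call without wild-type replicate 2 (0.062) or 3 (0.10) or knockout replicate 1 (0.085). The tissue-restricted clusters of the chromosome were nearly silent: 1 of 21 type I keratin genes listed (KRT10), 0 of 14 CC chemokine genes and 1 of 6 muscle myosin heavy chain genes (MYH3) reached the read threshold. Neither KRT10 nor MYH3 was called.

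The medians stayed on their side at every level of expression, while the share of calls was lowest in the least-read quartile and highest in the most-read. Members were placed in the quartiles of mean CPM over all tested genes, with limits at 4.53, 22.7 and 64.7 CPM. From the lowest to the highest quartile, medians below the boundary were 0.12, 0.16, 0.11 and 0.095, and above it -0.14, -0.081, -0.14 and -0.13. Medians of all genes in the same quartiles were 0.023, 0.013, 0.0046 and -0.0025. The share called higher below was 5.45%, 27.6%, 25% and 47.9%, and the share called lower above was 3.49%, 15.9%, 32.9% and 53.9%. For all genes the corresponding shares were 2.66%, 9.6%, 15.2% and 20.7% higher, and 2.91%, 6.89%, 13.4% and 22.4% lower. The median standard error fell from 0.28 to 0.036 below and from 0.30 to 0.040 above. In the lowest quartile the median error of a member was thus larger than the median shift. Of the members, 60 below and 192 above had a mean under 100 reads.

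**Figure D5:**
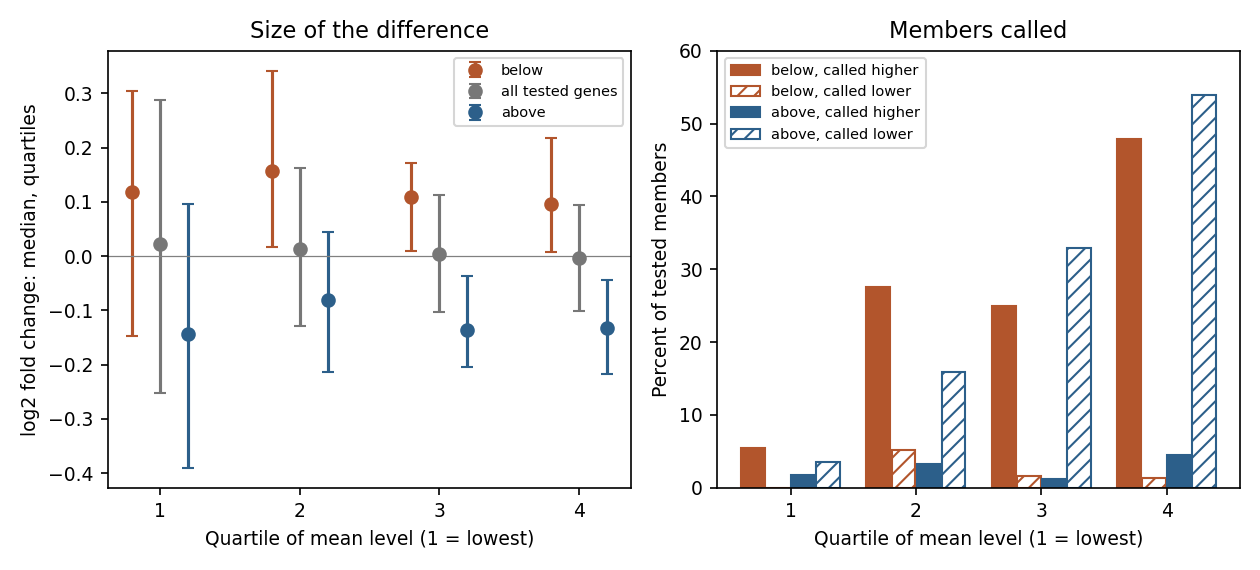
Left, median log2 fold change with its quartiles in each quartile of mean CPM, for members below and above the boundary and for all tested genes; right, the percent of tested members called. The medians stay on their side in every quartile, and the share called on that side is larger in the highest quartile than in the lowest.

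By gene type, protein-coding members had medians of 0.11 below (209) and -0.12 above (564), and other noncoding members 0.049 below (26) and -0.22 above (87). The median of pseudogenes was 0.13 below (13) and 0.052 above (41), and 23 of the 41 lay above 0. Members of both stretches had higher GC content than tested genes at large (medians of 54.4% and 52.8% against 48.1%) and similar lengths (2162 and 2208 against 2345 bases). Their median wild-type TPM was 24.6 below and 18.4 above, against 16.4. With trends on length and GC subtracted, an alternative chosen after seeing the data, the medians were 0.11 below and -0.11 above.

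The boundary was chosen on this contrast, so calls against the side of a stretch are given as a description. They were made for 5 members below (2.02%, with 11.4% lower over all tested genes) and 19 above (2.75%, with 12.1% higher). Below, these were NLRP1, MGC12916, ZNF594, ZZEF1 and CAMTA2. ZZEF1, a zinc finger and EF-hand protein, went from 168.5, 158.4 and 151 to 126.3, 127.2 and 142.9 CPM (log2 fold change -0.27 ± 0.05, edgeR adjusted p = 0.0016), and ZNF594 stood at -0.39 ± 0.09 and the noncoding MGC12916 at -0.55 ± 0.13. CAMTA2, a calmodulin-binding transcription activator, was at -0.17 ± 0.05 and lost its call without wild-type replicate 1 (edgeR adjusted p = 0.10) or 2 (0.054) or knockout replicate 2 (0.080). Above, 4 of the 19 lay before USP22 as described. Of the rest, ALDOC, the brain-type aldolase, went from 4.85, 5.09 and 5.61 to 8.92, 6.29 and 8 CPM (0.57 ± 0.15, edgeR adjusted p = 0.012), a call lost without wild-type replicate 1 (0.052) or knockout replicate 1 (0.064). MMD rose from 15.2, 14.1 and 15.5 to 17.72, 18.96 and 19.14 CPM (0.32 ± 0.08, edgeR adjusted p = 0.0084), but stood at 0.13 with offsets from effective length (adjusted p = 0.45) and at 0.061 in limma on log2(TPM + 1) (adjusted p = 0.70). LIMD2 stood at 0.36 ± 0.11 and lost its call without wild-type replicate 2 (0.11) or 3 (0.093) or knockout replicate 1 (0.12) or 3 (0.088), and with DESeq2 (0.058). FKBP10, a collagen chaperone, was among the others (0.18 ± 0.04). RPS7P1, AK4P1 and RPS7P11 are processed pseudogenes that may share reads with their parent genes.

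On the other autosomes the median log2 fold change ran from -0.055 (chromosomes 9 and 21) to 0.15 (chromosome 1). Apart from chromosome 1 the highest were 0.051 (chromosome 7) and 0.044 (chromosome 15). Chromosome 17 as a whole stood at -0.066, the lowest of the autosomes. Off chromosome 17 the median over 15014 tested genes was 0.0099.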

How the data were processed

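RNA sequencing of 6 HEK293 samples (3 wild type, 3 STAT5B knockout) was used, grouped by the genotype label. Per the submitters' processing notes, the tools included FastQC, fastp, DRAGEN and Picard and the build was hg38; the sources used here give no tool versions and no annotation release. The deposited files give, per the file headers, a length, an effective length, a TPM and an estimated count per gene. The estimated counts deposited by the authors, of which 7.12% to 7.64% were not whole, were rounded. The TPM deposited by the authors served 1 alternative and median levels.

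Knockout was compared with wild type over all genes with edgeR 4.0.16 in R 4.3.3: filterByExpr (minimum count 10, minimum total 15), TMM scaling, the quasi-likelihood test and Benjamini-Hochberg adjustment over 15958 genes, with a threshold of 0.05. The procedure was tested on simulated data. CPM use TMM-scaled library sizes, and the SE of a log2 fold change is from the same fit. Library levels used log2 CPM with a prior count of 2. No library was a copy of another: same-group pairs differed beyond sampling noise. Positions are those of GENCODE 29, matched for 58502 of 60609 identifiers, and 862 of 945 members have a symbol. The 250 bases before RefSeq starts were searched on both strands. As alternatives, DESeq2 1.42.0, limma-voom (limma 3.58.1), RLE scaling, other filters and read thresholds, effective-length offsets, log2(TPM + 1), trends on length, GC and level, other boundaries, a replicate block and leaving out each library were run.

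The members and lists were chosen with earlier results of these data known. Named by rule were STAT5B and the 2 nearest tested members on each side, the 3 nearest to the boundary on each side, in each stretch the 5 largest rises and falls among called members at 5 CPM or more with groups that did not overlap, the 3 with the highest CPM, and up to 3 called members per list and direction. Other names were chosen after their values were seen. A few genes that the rule or lists take are not reported here.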

Additional observations from a re-analysis of the deposited data

How the results depend on the processing

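No median of the members changed sign in 26 alternatives: below the boundary it ran from 0.028 to 0.12 and above it from -0.17 to -0.11. The lowest median below and the largest above came from limma on log2(TPM + 1), 0.028 and -0.17, where the median of all genes was -0.059; that fit called 21 members higher below, 6 higher and 121 lower above, and 1623 genes in all against 3742. Offsets from effective length gave a median of 0.098 below, 33 higher below, 9 higher and 88 lower above, and 1734 in all. Members at 1000 reads or more had medians of 0.097 and -0.14, with 38 higher and 2 lower below and 9 higher and 109 lower above, from fewer members. The means were 0.080 and -0.11. With a trend on length subtracted the median below was 0.097, and with trends on length and GC, chosen after seeing the data, the median above was -0.11. Moving the boundary to USP22, or leaving out NLRP1 and pseudogenes, both chosen after seeing the data, moved no median or count of calls by more than its spread or 1.5 times. Leaving out each library gave 2618 to 3575 calls in all, medians of 0.099 to 0.12 below and -0.13 to -0.11 above, and 49 to 59 higher and 5 to 6 lower below and 13 to 18 higher and 138 to 181 lower above.

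The labels do not say whether replicate numbers pair the samples. Correlations of deviations from the group means were 0.0038, 0.10 and 0.042 for same-numbered libraries and -0.098 to 0.052 for differently numbered ones. With 3 libraries per group these values cannot settle it. With the number as a replicate block, the medians were 0.11 and -0.12, with 68 higher and 6 lower below, 21 higher and 181 lower above, and 3660 calls in all. Of 88 called genes named, the block ended 4 calls (STAT5B, AURKB, CENPV and DNAH17), effective-length offsets 32 and log2(TPM + 1) 37, and DESeq2 ended 8 of the 84 to which it gave an adjusted p. Direction turned in log2(TPM + 1) for DVL2 (-0.011), and for TVP23B (-0.016), PRPF8 (-0.0048) and ACLY (-0.063), and for SNORD3A without wild-type replicate 3 (-0.23) or knockout replicate 2 (-0.24; -0.24 to 0.20 over all left-out libraries), of which DVL2 alone had been called. The causes were not tested. In the lowest quartile of mean CPM the median standard errors, 0.28 below and 0.30 above, were larger than the median shift.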
